A study of Bos taurus with 12 samples.

Results

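Immediate early genes are transcribed within minutes of a growth factor, hormone, cytokine or mechanical signal, without new protein synthesis. The 10 genes described here are FOS, FOSL2, JUN, JUNB, JUND, ATF3, MYC, EGR1, DUSP1 and IER2. They were chosen by name, with earlier results of these data known. Every probe set annotated with one of these symbols alone was taken, which gave 22 probe sets among the 24016 non-control probe sets of the array. A gene was measured when a probe set exceeded 4 on the log2 scale on at least 3 of the 12 arrays. By this rule 9 of the 10 genes were measured, with 12 kept probe sets, against 13449 kept probe sets and 6781 genes in the whole series. Where a gene had several kept probe sets, the one with the highest mean over the 12 arrays stood for it.

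The samples were biopsies of the endometrium, the lining of the uterus, of Simmental heifers, taken at day 7 (early luteal phase) or day 14 (mid luteal phase) of the oestrous cycle that preceded an embryo transfer. The heifers later received embryos from which a biopsy had been removed, and the groups were formed afterwards from what followed. CDd7 and CDd14 tissue came from animals that delivered a calf (CD), whereas the NPd7 and NPd14 animals had no pregnancy and returned to heat (NP). All 4 groups were biopsied in the same way as far as the labels say, and none was an untreated control. Each group had 3 Affymetrix arrays, each of RNA from a pool of biopsies; the labels do not state how many heifers entered a pool or whether the same heifers gave tissue on both days. P-values therefore measure the spread between pools.

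FOS and JUN proteins pair through leucine zippers to form AP-1, a factor that binds DNA at the response elements of many genes of proliferation, matrix turnover and inflammation. FOS proteins need a partner, JUN proteins can also pair with each other, and ATF3 is a stress-induced relative that joins the same network. MAP kinases, acting through serum response factor and its ETS-domain cofactors, switch on FOS and EGR1, and DUSP1 dephosphorylates those kinases and so ends the signal. In endometrium these genes respond to oestrogen, prostaglandins and cytokines, and in any tissue they can also respond to cutting and handling.

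FOS, ATF3 and MYC rose between day 7 and day 14 in the biopsies of heifers that later calved, by 3.02-fold, 4.54-fold and 2.62-fold. The same day difference in heifers that later had no pregnancy was 2.33-fold for FOS, 4.17-fold for ATF3 and 2.90-fold for EGR1, but none of these passed the test. On their brightest probe sets JUN, JUNB, JUND and IER2 differed by at most 0.33 log2 units between the days in either outcome. At day 7, MYC was 2.53-fold lower in CD than in NP pools; at day 14 no measured member differed between the outcomes beyond the threshold.

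The test was limma on the deposited log2 values, with Benjamini-Hochberg adjustment over the 13449 kept probe sets and an adjusted p under 0.05 as the threshold. No share of all genes is given for an unadjusted p under 0.05, so counts at that level are descriptions only. From CDd7 to CDd14, 3 of the 9 measured members were higher and 0 lower, where 24.1% of all 6781 genes passed and 9.87% were higher. The groups did not overlap for 5 members, all higher at day 14 (FOS, ATF3, EGR1, MYC and DUSP1), where 22.1% of all genes separated in that direction. The median difference of the members was 0.51 on the log2 scale against -0.00 over all genes. From NPd7 to NPd14, limma called 0 members, with 3 at an unadjusted p under 0.05 (FOS, ATF3 and EGR1), and it called 0.133% of all genes. The pool numbers were taken to pair the NP arrays across the days from the data alone, since the labels state no pairing. With the pool number as a replicate block limma still called 0 members. The probe sets called in all then fell from 44 to 21, or to 0 with the NP arrays fitted alone. The same 3 members did not overlap between the NP days, all higher at day 14, where 7.33% of all genes did so, and the members' median difference was 0.13 against -0.06 over all genes. The CD and NP day comparisons share no array, and 7 of the 9 members had a higher mean at day 14 in both, compared with 1974 of 6781 genes (29.1%). Of these 7, JUNB and MYC had NP differences of only 0.01 ± 0.15 and 0.05 ± 0.29, and JUND and DUSP1 of 0.13 ± 0.20 and 0.15 ± 0.23. The sign of each of these changed under at least 1 alternative. FOS, ATF3 and EGR1 kept the sign of their NP difference under all alternatives. The members were chosen with earlier results of these data known, so this count is a description and carries no test.

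**Figure D1:**
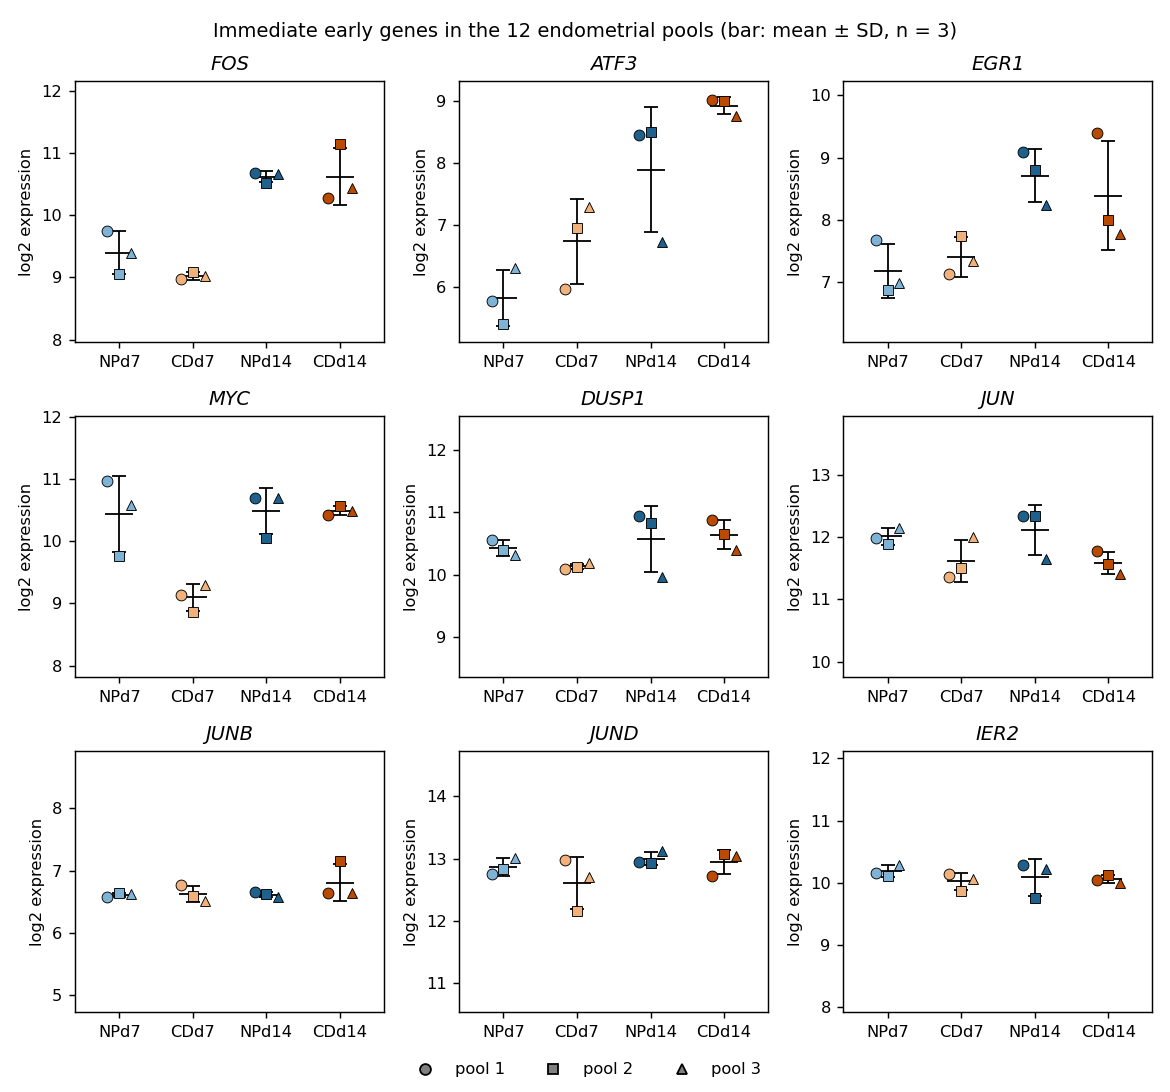
Log2 expression of the 9 measured genes in each of the 12 pools, with 1 panel per gene and each vertical axis 4.2 log2 units wide; markers are pools, and bars are group means ± SD (n = 3). FOS, ATF3 and EGR1 have higher means at day 14 in both outcomes, MYC is lowest in the 3 CDd7 pools, and JUNB and IER2 span 0.64 and 0.54 log2 units over the 12 pools.

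FOS encodes the founding member of the family that supplies the inducible side of AP-1. In NPd7 its 3 pools measured 9.75, 9.06 and 9.39, and in CDd7 they measured 8.97, 9.09 and 9.02 on the log2 scale. In NPd14 they measured 10.68, 10.52 and 10.67, and in CDd14 10.28, 11.15 and 10.44. All 6 day-14 pools lay above all 6 day-7 pools, with a gap from 9.75 to 10.28. The rise in CD was 1.59 ± 0.23 (SE) on the log2 scale, with a limma adjusted p of 0.00289. The difference in NP was 1.22 ± 0.23, with a limma adjusted p of 0.0658 (0.0288 with CDd14 pool 2 left out of the fit), and the difference between the CD and NP values was 0.37 ± 0.32 (adjusted p = 0.588). The mean NPd14 and CDd14 levels were 10.62 ± 0.09 and 10.62 ± 0.46 (SD, n = 3), so these neighbours did not differ beyond their spread, and the 95% interval of their difference ran from -0.51 to 0.51. The second FOS probe set stayed near the background of the array, at 2.84 to 3.55 in 11 pools and at 4.12 in CDd14 pool 2, which was also the highest pool of the main FOS probe set.

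FOSL2 encodes FRA2, a FOS relative that lacks the strong activation domain of FOS. Its 3 probe sets lay between 1.83 and 2.53 in all 12 pools. They did not pass the filter, so no comparison was made for it; a dim probe set gives a bound on the signal, not evidence that the gene is silent.

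ATF3, a bZIP protein induced by many kinds of cell stress, spanned 3.604 log2 units over the 12 pools. Its levels were 5.78, 5.41 and 6.31 in NPd7 and 5.98, 6.95 and 7.30 in CDd7. They were 8.45, 8.49 and 6.73 in NPd14 and 9.02, 8.99 and 8.76 in CDd14. CDd14 stood above every other pool, and NPd14 pool 3 lay within the range of CDd7. The rise from day 7 to day 14 was 2.18 ± 0.48 in CD (limma adjusted p = 0.0119) and 2.06 ± 0.48 in NP (limma adjusted p = 0.108). Without NPd14 pool 3 the NP difference was 2.64 with a limma adjusted p of 0.0172. The order of the group means was NPd7 at 5.83 ± 0.45, CDd7 at 6.74 ± 0.68, NPd14 at 7.89 ± 1.01 and CDd14 at 8.92 ± 0.14 (SD, n = 3). CD pools were thus higher than NP pools by 0.91 ± 0.48 at day 7 and by 1.03 ± 0.48 at day 14, but neither difference passed (limma adjusted p = 0.227 and 0.681). CDd14 and NPd14 did not overlap for ATF3, the only member of which this was true at day 14, where 4.85% of all genes separated with CD higher.

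EGR1, a zinc finger factor switched on by ERK signalling, measured 7.67, 6.87 and 6.98 in NPd7 and 7.12, 7.74 and 7.34 in CDd7. It measured 9.09, 8.80 and 8.24 in NPd14 and 9.39, 7.998 and 7.78 in CDd14. Within each outcome the 2 days did not overlap, but over both outcomes the lowest day-14 pool (7.78) only just cleared the highest day-7 pool (7.74). The day difference was 1.54 ± 0.41 in NP and 0.98 ± 0.41 in CD, and limma's adjusted p was 0.141 and 0.105. CDd14 pool 1 stood apart from the other CDd14 pools, and the SD of that group was 0.87. A second EGR1 probe set stayed between 1.15 and 1.18 and was not used.

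A contrast of the days over both outcomes, added after the values were seen, used 6 against 6 pools in the same fit. It called FOS (1.41 ± 0.16 on the log2 scale, 2.65-fold, limma adjusted p = 0.00145), ATF3 (2.12 ± 0.34, 4.35-fold, 0.00346), EGR1 (1.26 ± 0.29, 2.40-fold, 0.0130) and MYC (0.72 ± 0.20, 1.65-fold, 0.0281). These 4 of 9 members compare with 25% of all genes called in either direction, 9.36% of them as higher. FOS and EGR1 were the members whose 6 and 6 pools did not overlap, a pattern that 2.55% of all genes showed with day 14 higher. For MYC the difference within the outcomes was 1.39 ± 0.29 in CD and 0.05 ± 0.29 in NP, so its value here is the mean of unlike differences.

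The JUN family supplies the other side of the AP-1 dimer. For JUN, the most strongly activating member, the pools of the brightest probe set measured 11.99, 11.89 and 12.15 in NPd7 and 11.35, 11.50 and 11.999 in CDd7. They measured 12.34, 12.34 and 11.65 in NPd14 and 11.77, 11.56 and 11.41 in CDd14. In each of the 4 pairwise comparisons the groups overlapped, although every NPd7 pool lay above every CDd14 pool. The day difference was -0.04 ± 0.22 in CD and 0.10 ± 0.22 in NP, with 95% intervals of -0.53 to 0.46 and -0.39 to 0.59, so a change of the size seen for FOS lay outside both. CD was lower than NP by a difference of -0.53 ± 0.22 at day 14 (unadjusted p = 0.0382, limma adjusted p = 0.641), and NPd14 pool 3 lay inside the CDd14 range.

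JUN had 3 further kept probe sets, which did not all move alike. One differed by -0.82 ± 0.36 between the days in CD (unadjusted p = 0.0468, limma adjusted p = 0.121), while the other 2 differed by -0.00 and 0.16. Over the 12 pools the correlations between the 4 JUN probe sets ran from 0.18 to 0.67. JUN's day difference in CD therefore had no single sign across its probes, and none of the 4 passed.

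JUNB, which often acts as a weaker activator or antagonist of JUN, measured between 6.50 and 6.77 in 11 pools and 7.15 in CDd14 pool 2. Its day difference was 0.18 ± 0.15 in CD and 0.01 ± 0.15 in NP (limma adjusted p = 0.373 and 0.985). JUND, which is made constitutively in most cells, measured 12.70 to 13.11 in 11 pools and 12.15 in CDd7 pool 2. Its day difference was 0.33 ± 0.20 in CD and 0.13 ± 0.20 in NP (limma adjusted p = 0.236 and 0.790). JUND's other 2 probe sets stayed at or below 3.35 and were not used. CDd14 pool 2, high in FOS on both of its probe sets, was thus also the highest pool for JUNB.

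MYC, which pairs with MAX to drive genes of growth and ribosome production, followed another pattern. It measured 10.97, 9.76 and 10.58 in NPd7, and 9.14, 8.86 and 9.30 in CDd7. It measured 10.70, 10.05 and 10.70 in NPd14, and 10.42, 10.56 and 10.49 in CDd14. The 3 CDd7 pools were the lowest of the 12, and the means of the other 3 groups were 10.44 ± 0.62, 10.49 ± 0.37 and 10.49 ± 0.07 (SD, n = 3) and did not differ beyond their spread. MYC was lower in CDd7 than in NPd7 by a difference of -1.34 ± 0.29 (limma adjusted p = 0.0401) and higher in CDd14 than in CDd7 by 1.39 ± 0.29 (limma adjusted p = 0.00949). Both comparisons use the same CDd7 arrays and are not independent. At day 14 the difference between outcomes was 0.00 with a 95% interval of -0.64 to 0.64. The change of the outcome difference from day 7 to day 14 was 1.34 ± 0.41, with an unadjusted p of 0.00782 and a limma adjusted p of 0.268. It did not pass, and 0% of all genes passed for this outcome-by-day term.

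The day-7 call of MYC was close to the threshold. It was lost with no filter on dim probe sets (limma adjusted p = 0.0711) and with only the 6 day-7 arrays in the fit (0.0975). It was also lost with a covariate for the 3'-to-5' signal difference of control transcripts (0.317). The probe sets called in all in this comparison fell from 503 to 161, 3 and 0 in these fits. The MYC call was also lost without NPd7 pool 1 or 3, CDd7 pool 1 or 2, NPd14 pool 1 or any CDd14 pool. In those fits 0 to 403 probe sets were called in all. For MYC limma's adjusted p lay between 0.00920 and 0.317 over all 20 alternatives. The difference itself stayed between -1.68 and -1.07 in all of them.

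DUSP1, the phosphatase that inactivates MAP kinases, measured 10.56, 10.40 and 10.31 in NPd7 and 10.10, 10.12 and 10.18 in CDd7. It measured 10.94, 10.83 and 9.96 in NPd14 and 10.87, 10.65 and 10.40 in CDd14. The CD days did not overlap, with a difference of 0.51 ± 0.23 (limma adjusted p = 0.133), whereas NPd14 pool 3 was the lowest of all 12 pools and the NP difference was 0.15 ± 0.23 (0.791). With NPd14 pool 3 left out of the fit, which lowers the shared error, the CD difference of 0.51 had a limma adjusted p of 0.0239. IER2, a nuclear protein induced by serum, stayed between 9.75 and 10.29, with day differences of 0.03 ± 0.15 in CD and -0.10 ± 0.15 in NP. Its other 2 probe sets were under the filter, at most 3.62.

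Between the outcomes, limma called 1 of 9 members at day 7 (MYC, lower in CD), where 3.48% of all genes passed and 2.02% were lower. MYC and DUSP1 did not overlap between NPd7 and CDd7, both lower in CD, where 18.6% of all genes separated in that direction. At day 14 limma called 0 members, with 1 (JUN) at an unadjusted p under 0.05, and 0.0147% of all genes. The median difference between CD and NP over the members was -0.25 at day 7 and 0.00 at day 14, against -0.01 and 0.03 over all genes. For the outcome-by-day term limma called 0 members, with 1 (MYC) at an unadjusted p under 0.05.

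**Figure D2:**
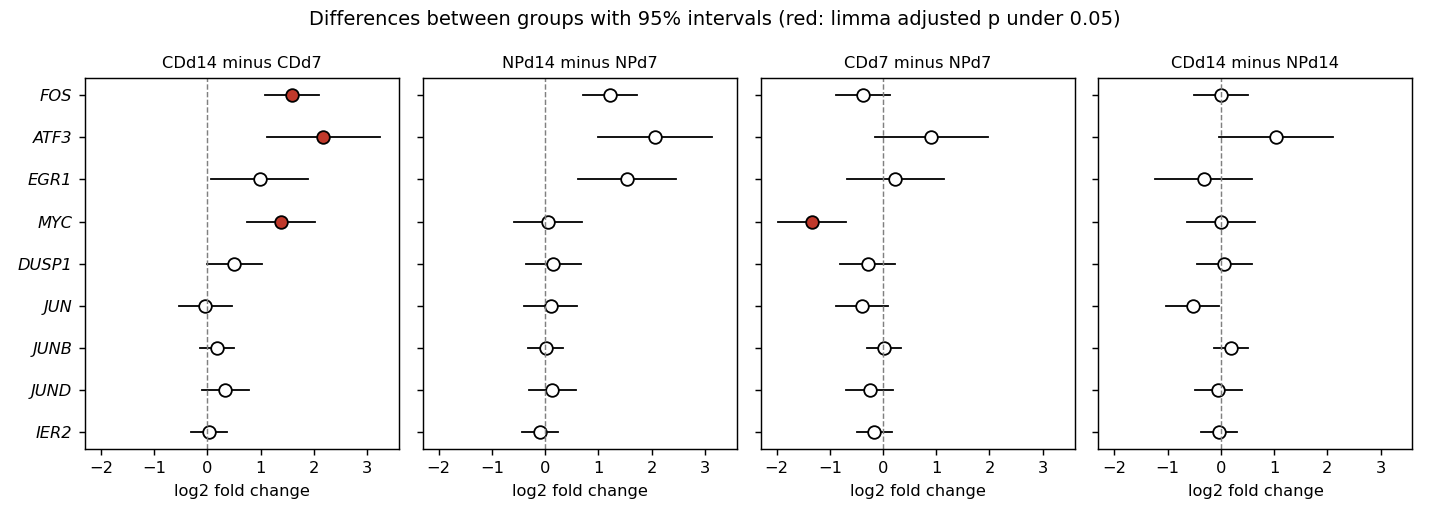
Log2 differences of the 9 measured genes in the 4 pairwise comparisons, as points with 95% intervals from the limma fit; filled red points passed an adjusted p under 0.05. FOS, ATF3 and MYC passed from CDd7 to CDd14, MYC passed with the opposite sign between the outcomes at day 7, and the intervals at day 14 between the outcomes lie around 0 for FOS and MYC.

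A wider list of 40 other immediate early genes had 27 on the array and 20 measured. From CDd7 to CDd14, 6 of the 20 rose and 2 fell, where 9.87% of all genes rose and 14.2% fell, and the median difference was 0.42. GADD45A, a growth arrest gene, rose by 1.57 ± 0.16 (limma adjusted p = 0.00156), from 10.18 ± 0.26 to 11.75 ± 0.01 (SD, n = 3). IER3, a survival gene, rose by 1.73 ± 0.44 (0.0213), and ZFP36L1, which binds AU-rich messages, rose by 0.86 ± 0.21 (0.0175). The other risers, named after their values were seen, were KLF10, ZFP36L2 and NR4A2, at 0.97, 0.94 and 0.72. NFKBIA, the inhibitor that NF-kB induces against itself, fell by 1.44 on the log2 scale (0.0216), and ZFP36, also named after its value was seen, fell by 1.32 (0.0240). From NPd7 to NPd14 limma called 0 of the 20, where it called 0.133% of all genes. An unadjusted p under 0.05 was reached by 1, and the median difference was 0.30. At day 7 GADD45A was lower in CD than in NP by a difference of -0.75 ± 0.16 (limma adjusted p = 0.0401), in the same direction as MYC. At day 14 and for the outcome-by-day term limma called 0 of the 20, with 2 at an unadjusted p under 0.05 in each. In both day comparisons 12 of the 20 had a higher mean at day 14, 4 a lower mean and 4 opposite signs. Of all 6781 genes, 1974 (29.1%) were higher in both, 2628 lower in both and 2179 opposite. The list was chosen with earlier results of these data known, so this count carries no test.

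**Figure D3:**
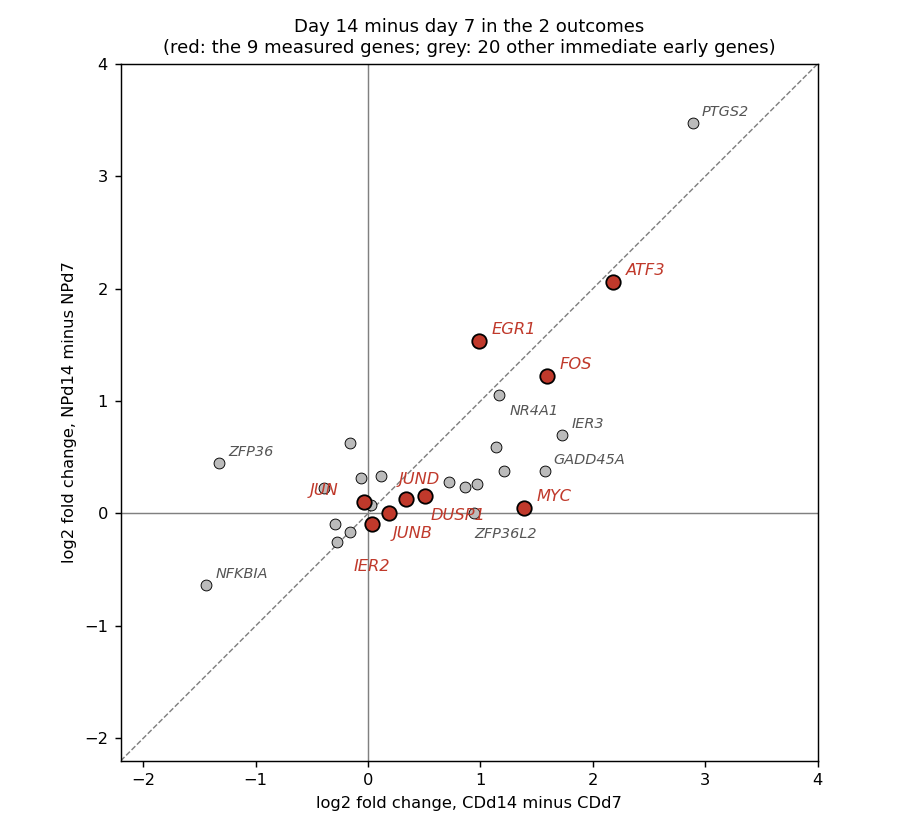
Log2 difference between day 14 and day 7 in CD (horizontal) and NP (vertical) for the 9 measured members (red) and 20 other immediate early genes (grey, some named); the dashed line marks equal differences. ATF3, FOS and EGR1 lie near the line with differences of 0.98 to 2.18, while MYC lies near 0 on the NP axis at 0.05 and at 1.39 on the CD axis.

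Among 9 measured other AP-1 and ATF factors, 1 passed from CDd7 to CDd14, where 24.1% of all genes passed. It was ATF7, a constitutive CRE-binding factor, which fell by 0.61 on the log2 scale (limma adjusted p = 0.0156), and its other kept probe set differed by -0.42 (0.0802). Of 14 measured kinases and serum response factors upstream of these genes, 1 rose and 3 fell in the same comparison, shares near those of all genes (9.87% and 14.2%), so nothing is read from the count. RPS6KA5, the kinase MSK1 that phosphorylates CREB and histone H3 at immediate early genes, fell by 2.74 (limma adjusted p = 0.00176), and it was higher in CDd7 than in NPd7 by 1.34 ± 0.30 (0.0426). MAP2K2, a kinase that activates ERK, fell by 0.65 (0.0112), and the RAF kinase ARAF fell by 1.52 on its brightest probe set and differed by -0.19 on its other (0.641). MAPK14, the p38 alpha kinase, rose by 0.72 ± 0.18 (0.0183) on its brightest probe set and differed by -0.09 on the other (0.684). From NPd7 to NPd14 limma called 0 of the 14, with 6 at an unadjusted p under 0.05, where it called 0.133% of all genes.

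The list of dual specificity phosphatases and MAP kinase feedback genes had 5 measured members besides DUSP1. SPRY2, which restrains receptor tyrosine kinase signalling, was the 1 that passed, with a rise of 1.31 ± 0.20 from CDd7 to CDd14 (limma adjusted p = 0.00350). Of all genes 24.1% passed in that comparison. Of 5 measured partners and antagonists of MYC, 1 passed there, against the same 24.1% of all genes. MXI1, which competes with MYC for MAX, rose by 0.56 ± 0.15 (0.0219). Its other kept probe set differed by 0.44 (0.144).

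Of 16 measured genes known as MYC targets, 2 rose and 3 fell from CDd7 to CDd14, with a median difference of 0.06. These shares were near those of all genes, of which 9.87% rose and 14.2% fell, so the count shows nothing about the targets. ODC1, the rate-limiting enzyme of polyamine synthesis, fell by 2.59 on the log2 scale (limma adjusted p = 0.00379), from 15.44 ± 0.09 to 12.85 ± 0.18 (SD, n = 3). EIF4E, the cap-binding translation factor, fell by 0.68 (0.0102), and GNL3, a nucleolar GTPase, rose by 0.62 ± 0.19 (0.0424). LDHA fell by 1.42 on its brightest probe set, but its other 2 differed by 0.36 and -0.04. Between CDd7 and NPd7, where MYC was lower, limma called 0 of the 16 targets, with 3 at an unadjusted p under 0.05, where it called 3.48% of all genes.

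Of 10 measured AP-1 targets, 1 rose from CDd7 to CDd14 and 0 fell, where 9.87% of all genes rose, and the median difference was 0.73. From NPd7 to NPd14 limma called 0 of the 10, where it called 0.133% of all genes. An unadjusted p under 0.05 was reached by 6, and the median difference was 0.98 against -0.06 over all genes. CXCL8, which encodes the neutrophil attractant interleukin 8, measured 4.10, 4.14 and 6.07 in CDd7 and 9.39, 13.19 and 11.28 in CDd14. It measured 6.59, 6.69 and 3.59 in NPd7 and 12.68, 12.46 and 8.83 in NPd14, so that every day-14 pool lay above every day-7 pool. The difference in CD was 6.52 ± 1.29 (limma adjusted p = 0.00826) and in NP 5.70 ± 1.29 (0.104). The day-7 values of 3.59, 4.10 and 4.14 lay close to the filter level of 4, and pools of one group differed widely. Both make these fold sizes uncertain. CDd14 pool 2 was the highest pool for CXCL8 as well as for FOS and JUNB. TIMP1, an inhibitor of matrix metalloproteinases, was lower in CDd7 than in NPd7 by a difference of -1.65 ± 0.32 (0.0336), and its other kept probe set gave -1.34 (0.0285).

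Several measures that can move with the time and handling of a biopsy are given beside the day differences. Of 11 measured heat shock and tissue stress genes, 3 rose and 2 fell from CDd7 to CDd14, where 9.87% of all genes rose and 14.2% fell, and the median difference was -0.09. HSPB1, CRYAB and HSPA1A rose by 0.66, 1.12 and 0.43 on their brightest probe sets. The other HSPB1 probe set differed by 0.14 (limma adjusted p = 0.681), and the other 4 kept HSPA1A probe sets differed by 0.26, -0.35, 0.45 and -0.30, of which the third passed (0.0323). BAG3, a co-chaperone, fell by 1.502 on the log2 scale. From NPd7 to NPd14 limma called 0 of the 11, where it called 0.133% of all genes. It was also 0 at an unadjusted p under 0.05, and the median difference was 0.00. The summed level of the heat shock list at day 7 ran from 16.49 to 16.56 on the log2 scale in NP and from 16.61 to 16.88 in CD, and at day 14 from 16.36 to 16.76 in NP and from 16.65 to 16.73 in CD. Of 9 measured hypoxia genes, 2 rose (NDRG1 by 1.74 and ADM by 2.08) and 4 fell from CDd7 to CDd14. ADM measured 4.78, 3.24 and 5.69 in CDd7, around the filter level of 4, so the size of its fold is uncertain. Those that fell included BNIP3 by 0.49 and LDHA by 1.42 on its brightest probe set. The other 2 LDHA probe sets differed by 0.36 and -0.04. In NP limma called 0 of the 9, with 2 at an unadjusted p under 0.05, where it called 0.133% of all genes.

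Endogenous control transcripts, read near both ends, give a measure of RNA integrity and labelling. Their 3'-to-5' signal difference at day 7 was 1.94 ± 0.19 in NP and 1.65 ± 0.20 in CD, and at day 14 it was 2.32 ± 0.17 in NP and 1.97 ± 0.11 in CD (SD, n = 3). It was higher at day 14 by 0.32 in CD and 0.38 in NP, each with an exact two-sided permutation p of 0.1, the smallest that 3 against 3 arrays allow. The added bacterial control transcripts showed the same order, from 4.74 ± 0.07 in CDd7 to 5.38 ± 0.14 in NPd14. With the 3'-to-5' difference as a covariate, the probe sets called in all from CDd7 to CDd14 fell from 3231 to 174. Of the 3 member calls 1 was kept, FOS at 1.83 ± 0.28 (limma adjusted p = 0.0345). ATF3 was then at 2.49 ± 0.63 (0.0748) and MYC at 1.28 ± 0.38 (0.102). The part of handling, RNA integrity or labelling in the day differences was otherwise not tested.

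The labelled tissue was checked against cell type markers. Of 11 epithelial markers 10 were measured, among them EPCAM and KRT18, and their summed level ran from 15.84 to 16.13 on the log2 scale over the 12 pools. It ran from 15.84 to 15.91 in CDd7 and from 16.07 to 16.13 in CDd14, which did not overlap, and 2 of the 10 rose between them, KRT7 by 0.99 and CDH1 by 0.44 (limma adjusted p = 0.0341 and 0.0342). The other CDH1 probe set differed by -0.48 (0.0603). From CDd7 to CDd14 9.87% of all genes rose and 14.2% fell. In bulk RNA, fewer cells of a type and less RNA per cell cannot be told apart. Stromal markers were lower in CDd7, the group in which MYC was low: 7 of 10 measured passed as lower than in NPd7, where 2.02% of all genes did, with a median difference of -3.12. Their summed log2 level at day 7 ran from 12.78 to 14.20 in NP and from 10.58 to 11.58 in CD, and at day 14 from 12.20 to 12.76 in NP and from 11.19 to 12.24 in CD. From CDd7 to CDd14, where MYC rose by 1.39, 1 of the 10 stromal markers rose (PDGFRA). Of the 12 listed stromal markers COL1A1 and PDGFRB did not pass the filter. T and NK cell markers were also lower in CDd7 than in NPd7 in 3 of 10 measured. From CDd7 to CDd14, 2 of these 10 rose: LCK by 1.30 (limma adjusted p = 0.0140; 0.53 on its other probe set, 0.138) and CD69 by 2.24 (0.0410). Of 7 endothelial markers on the array 1 passed the filter, CLDN5, which was higher in CDd7 than in NPd7 by 2.37 ± 0.48 (limma adjusted p = 0.0368) and fell by 4.48 on the log2 scale from CDd7 to CDd14 (0.00176), while PECAM1, VWF and CDH5 did not pass the filter. The part of these cell types in the differences of MYC, FOS and ATF3 was not tested.

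Of 10 listed neutrophil markers, 4 were on the array and 3 were measured. From CDd7 to CDd14 limma called 1 of the 3 as higher (S100A12, by 3.51 ± 0.87, adjusted p = 0.0185), where 9.87% of all genes were higher. It did not call the other 2. The summed log2 level of the 3 at day 7 ran from 8.19 to 10.95 in NP and from 5.60 to 7.96 in CD. At day 14 it ran from 10.44 to 12.60 in NP and from 9.22 to 10.75 in CD, so the NP days overlapped and the CD days did not. The defining red cell genes HBB and HBA stayed at or below 2.72 and 2.32 in every pool. Of 6 listed red cell genes on the array 2 were measured, GYPC and AHSP, the latter at most 4.47. GYPC was lower in CDd7 than in NPd7 by a difference of -0.98 ± 0.22 (limma adjusted p = 0.0434), where 2.02% of all genes were lower. Of 7 smooth muscle markers on the array 0 passed the filter. The part of these cells in the day differences was not tested.

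A list of luteal stage genes was set beside the members. Of 11 measured, 4 rose and 2 fell from CDd7 to CDd14, where 9.87% of all genes rose and 14.2% fell. SLC39A2, a zinc transporter, was up by 8.71 ± 1.74 and LPL, lipoprotein lipase, down by a difference of -6.03 ± 0.91 (limma adjusted p = 0.00852 and 0.00344). SLC39A2 measured 4.64, 3.08 and 4.05 in CDd7, close to the array's floor, so the size of its fold is uncertain. The receptors of progesterone and oestrogen, PGR and ESR1, stayed at or below 2.16 and 1.63 in every pool and gave no comparison. NPd14 pool 3, low in ATF3, JUN and DUSP1, also had the lowest mean of this list among all pools, 5.93, against 8.64 and 9.85 in the other NPd14 pools. That mean mixes genes that rose and genes that fell between the days, so it does not place a pool in the cycle. In NPd14 pool 3 SLC39A2, which rose in CD, was at 5.49. EDN3, which encodes endothelin 3 and fell in CD, was at 2.66 there, its lowest value of all pools. A link to the members was not tested.

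The members differed in how much pools of one group varied. The within-group SD was 0.65 for ATF3 and 0.55 for EGR1, at the 90.4 and 86.6 percentiles of all genes, and 0.16 for JUNB and 0.17 for IER2, at the 25.7 and 28.6 percentiles. FOS, at 0.29, lay near the median gene, whose SD was 0.24.

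**Figure D4:**
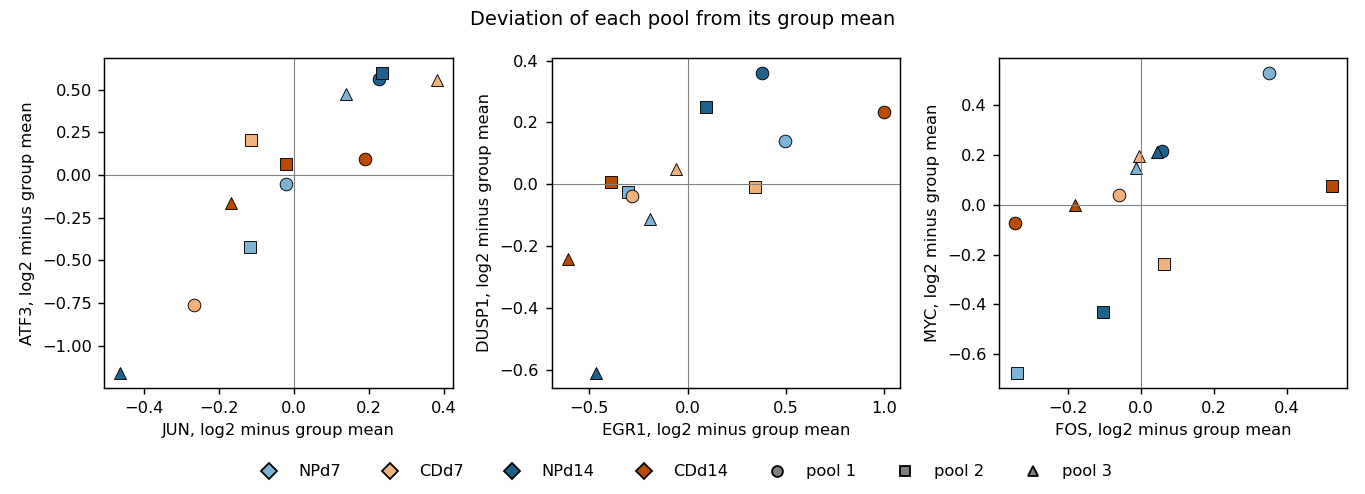
Deviation of each pool from its group mean on the log2 scale for JUN and ATF3, EGR1 and DUSP1, and FOS and MYC; colours are groups and markers are pool numbers. The lowest point for JUN and ATF3, and for DUSP1, is NPd14 pool 3.

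After the group means were subtracted, the members did not rise and fall as one set. Over the 36 pairs of members the median correlation of deviations over the 12 pools was 0.04, with 9 pairs above 0.5 and 1 below -0.5 (JUND with EGR1, -0.69). These are descriptions over arrays that share their groups and carry no test. JUN and ATF3 deviated together most closely (r = 0.91, and 0.82 without NPd14 pool 3). ATF3 with DUSP1 rested on that pool (0.72 with it and 0.14 without), as did JUN with DUSP1 in part (0.77 and 0.43), while EGR1 with DUSP1 did not (0.70 and 0.86). FOS deviated with JUNB (0.62 and 0.63) and with MYC (0.59 and 0.60), where the second value again leaves out NPd14 pool 3. The largest deviations of both FOS and JUNB were in CDd14 pool 2, at 0.52 and 0.34. Their correlation without CDd14 pool 2 was not computed, so it may rest on that pool. FOS and ATF3, both higher at day 14, had a within-group correlation of 0.08.

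The genes whose levels followed each member most closely over the 12 arrays were found by Pearson's r among all 6781 genes. Because groups differ, these values mix group differences with pool differences, and they carry no test. FOS was followed by ZC3H18, RUFY3 and NFKBIZ (r = 0.93, 0.93 and 0.92) and was opposed by SAMM50, NDUFB6 and FAHD1 (-0.94, -0.93 and -0.93). MYC was followed by FRA10AC1, FBXL5 and GNAI1 (0.98, 0.98 and 0.97) and opposed by TCAF2, POC1A and GCLC (each -0.97). ATF3 was followed by NEDD4L, LGALS3BP and MX1 (0.95, 0.94 and 0.94), the last an interferon-induced GTPase. EGR1 was followed by SRSF5, ZC3H12A and NCLN (0.94, 0.89 and 0.88), and DUSP1 by APOBEC3Z2, PHF5A and ZC3H12A (0.90, 0.89 and 0.89). ZC3H12A, an RNase that degrades inflammatory messages, was thus on the lists of both EGR1 and DUSP1. JUNB was followed by ELF3, CXCL14 and TRIOBP (0.93, 0.92 and 0.85), the first an epithelial factor. For JUN the closest genes, WDR6, RASIP1 and PACC1, reached 0.81, 0.80 and 0.78. JUND was followed by NUP43, RASA2 and OSBPL7 (0.90, 0.89 and 0.88), and IER2 by RPAP2, DDB2 and MACROD1 (0.88, 0.87 and 0.86).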

How the data were processed

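Total RNA of pooled endometrial biopsies, 3 pools per group, was amplified, biotin-labelled and hybridised to Affymetrix bovine arrays, per the labels' protocols. The deposited table holds log2 values. The submitters' processing notes list GCRMA, a method that corrects background, normalizes between arrays and summarises probes into probe sets, and limma, without versions. GCRMA draws dim probe sets toward a floor, so folds from dim levels depend on it. The values ran from 0.40 to 16.01.

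From these values 112 control probe sets were left out, probe sets above log2 4 on at least 3 of 12 arrays were kept (13449 of 24016, 56.0%; 8239 with 1 symbol, 59 with several, 5151 unnamed here), and 4 group means were fitted with limma 3.58.1 in R 4.3.3 (8 residual and 2.13 prior degrees of freedom, two-sided, Benjamini-Hochberg over all kept probe sets). Identifiers matched for 13283 symbols, of which 0 changed. The fit was tested on simulated data. Pools were numbered by the titles' replicate numbers; in 1 CDd14 title the name and the replicate number disagree, and the replicate number was used. Deviations of same-numbered pools from their group means correlated at 0.16 to 0.62 between NPd7 and NPd14, over 0.1 in 3 of 3 pairs, so the numbers were taken to pair these arrays, from the data alone. In each other comparison 2 of 3 pairs were over 0.1 and the numbers were not taken to pair arrays. Arrays within a group correlated at 0.975 to 0.996, and 0 pairs were identical. The number of arrays limits the precision.

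The members and all gene lists were chosen with earlier results of these data known. Named were all members and the 3 genes most like each member (also most opposite for FOS and MYC). Per list and contrast the up to 4 called genes of smallest p were chosen for naming, but the text does not print all of them. Alternatives varied the filter, normalization, moderation, probe set rule, arrays fitted, a replicate block, the 3'-to-5' covariate and each array left out. Promoter motifs, sequences and coordinates were not analysed here.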

Additional observations from a re-analysis of the deposited data

How the results depend on the processing

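The number of members called from CDd7 to CDd14 was 3. It fell to 1 (FOS) with the 3'-to-5' difference as a covariate, where the probe sets called in all fell from 3231 to 174. The number of members kept its value under the other planned settings and ran from 3 to 4 when each pool was left out. Between CDd7 and NPd7 the count of 1 (MYC) fell to 0 with no filter, with the 3'-to-5' covariate and with only the arrays of the groups compared. There the probe sets called in all fell from 503 to 161, 0 and 3. The member count ran from 0 to 1 over the pools left out. From NPd7 to NPd14 the count of 0 stayed at 0 under every setting and ran from 0 to 1 over the pools left out: ATF3 passed without NPd14 pool 3, and FOS without CDd14 pool 2 (adjusted p = 0.0288). At day 14 and for the outcome-by-day term it was 0 throughout. The pool number as a replicate block left all 5 counts as they were, and so did a block in a fit of the NP arrays alone, which was added after seeing the data (FOS and EGR1 each at an adjusted p of 0.113, ATF3 at 0.176). MYC at day 7 had an adjusted p of 0.0216 with the block over all arrays, which moved the probe sets called in all from 503 to 1455 there, from 3 to 0 between CDd14 and NPd14, and from 3231 to 3676 from CDd7 to CDd14. The causes were not tested. Over 900 single-gene values under the alternatives, 839 kept direction and side of the threshold, 13 lost and 3 gained a call, 45 uncalled values changed sign and 0 called values reversed. Uncalled differences near 0, such as those of JUNB and IER2, had no stable sign. Signal over background limits FOSL2 and the second probe sets of FOS, JUND, EGR1 and IER2.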
